A study of Mus musculus with 18 samples.

Results

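Gene expression was compared between LAP2α knockout (KO) and wildtype (WT) mouse myoblasts on day 2 of differentiation (D2). The comparison takes all genes of the D2 libraries, 3 from KO and 3 from WT cells, which are 6 of the 18 RNA-seq libraries of the series, and treats libraries with the same replicate number as pairs. The other 12 libraries came from proliferating cells (Prol) and from cells that had just reached confluence (D0) and are used here for reference. All cells were immortalized myoblasts with a knockout of p53, so that both genotypes lack p53. The KO cells had received a Cas9 plasmid with an sgRNA against *Lap2α*, and the WT cells the same plasmid without an sgRNA. Each genotype was sorted in bulk for EGFP and sorted again, so each is a pool of cells and not a clone. D2 cells of both genotypes had grown to confluence in 20% fetal calf serum and were then kept in 5% serum for 48 hours. The labels do not say whether replicates were separate cultures, and the p-values measure only the spread between these libraries.

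LAP2α is a nucleoplasmic product of the gene *Tmpo* that lacks a membrane anchor and binds A-type lamins and the retinoblastoma protein. When serum is reduced, myoblasts leave the cell cycle, and the myogenic factors MyoD and myogenin, together with MEF2 proteins, switch on genes of the contractile apparatus before the cells fuse into myotubes. The sarcomere that is then built holds thick filaments of myosin and thin filaments of actin, tropomyosin and troponin, which are anchored at the Z-disc.

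The deposited values are in CPM (counts scaled to a fixed library total that includes the TMM factor). The D2 libraries held 30218750 to 41619016 expected counts, and 3 counts corresponded to 0.0651 to 0.0981 CPM, a limit that covers counting error only. The pair with replicate number 1 stood apart. In a principal component analysis of the 1000 most variable genes, the first component took 74.4% of the variance and placed the WT and the KO library of replicate 1 at 38.1 and 38.5 and the other 4 libraries between -29.8 and -12.4. The TMM scaling factors of this pair were 0.909 and 0.931, against 1.11 to 1.18 in the other 4. Counts over all genes and over the main gene lists are therefore given with all libraries and without this pair. Of 11 markers of skeletal muscle, all were listed, and their summed level was 2984 to 5928 CPM in WT and 1843 to 2281 CPM in KO libraries. Of the satellite cell markers, *Pax7* and *Calcr* were not listed.

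*Tmpo* (ENSMUSG00000019961, minus strand of chromosome 10 of GRCm38, 91147571 to 91181315) was at 106, 150 and 157 CPM in WT and 94.5, 108 and 157 CPM in KO replicates 1, 2 and 3. KO was below WT in each of the 3 pairs, with almost no difference in replicate 3, and the groups overlapped. The fitted change was -0.21 on the log2 scale (standard error 0.15, adjusted p = 0.937, limma). These values count all *Tmpo* isoforms together, so they do not check the loss of LAP2α itself. Within 1 Mb of *Tmpo*, 5 other genes were tested (*Anks1b*, *Apaf1*, *Ikbip*, *Slc25a3* and *Gm24119*), and none of them or *Tmpo* was called or reached an unadjusted p-value under 0.05 in limma.

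A gene was called when its unadjusted p-value in limma was under 0.05, its change was more than 1.5-fold and at least 1 D2 library had 10 CPM or more. Of the 17672 genes tested, 308 (1.74%) were called, 180 lower in KO (1.02%) and 128 higher in KO (0.724%). These shares of all tested genes are the background for the counts of list members below. Genes under 10 CPM in every D2 library cannot be called. Adjusted over all genes, the p-value was under 0.05 for *Mfap4* alone (0.00566%), a number that moved between 0 and 95 genes over the alternative fits (95 with log2(value + 1), 44 when at least 10 CPM was asked for in all libraries of a group, 31 without KO replicate 3 and 0 with a fixed replicate block), and 1186 genes (6.71%) had an unadjusted one under 0.05, so that the other calls do not pass the correction over all genes. Of the 180 lower genes, 41 belonged to 3 lists of contractile genes and 139 did not. None of the 128 higher genes belonged to these lists. The plot of all genes shows both sides.

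**Figure D1:**
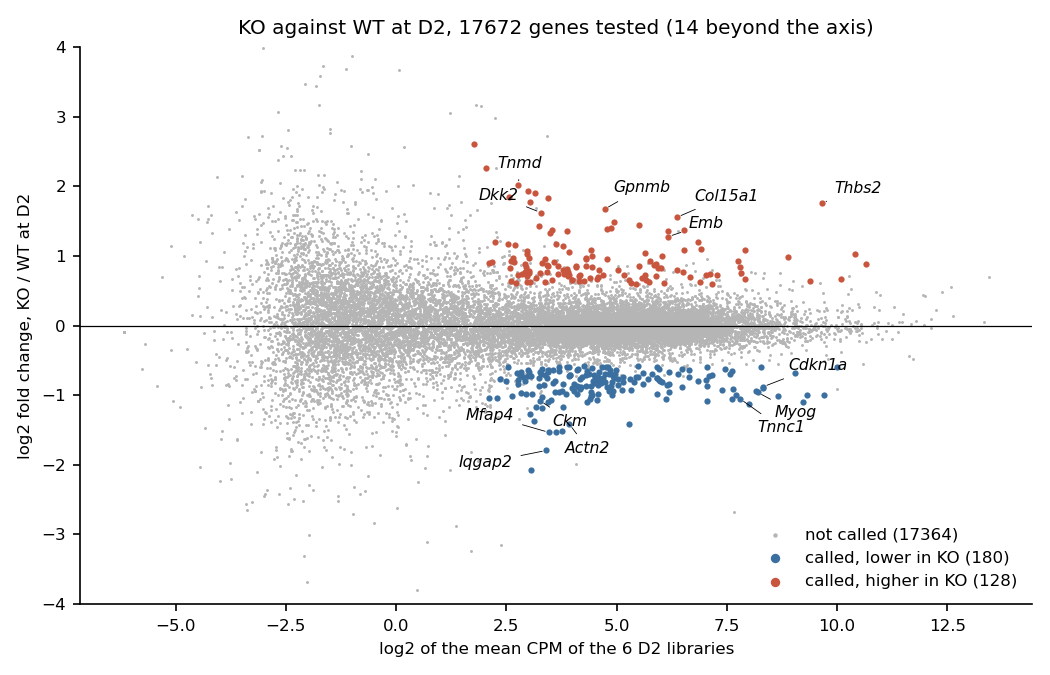
Each point is 1 of the 17672 genes tested, with the log2 of its mean CPM over the 6 D2 libraries on the horizontal axis and its log2 fold change (KO / WT at D2) on the vertical axis, and 14 genes, none of them called, lie beyond the axis. The 180 genes called lower in KO (blue) and the 128 called higher (red) all lie within the axis, and the rest is grey.

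The lower genes were low before differentiation. Their median level in WT cells was 1.34 CPM in Prol, 1.72 CPM at D0 and 30.2 CPM at D2, and in KO cells at D2 it was 16.2 CPM. The higher genes were expressed in all states, with a median of 7.99 CPM in WT Prol, 9.06 CPM in WT D0, 13.2 CPM in WT D2 and 22.6 CPM in KO D2. Among all tested genes with at least 10 CPM in a D2 library, the medians in WT were 40.6, 39.7 and 39.9 CPM.

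The pairs did not contribute equally. For the lower genes, the median log2 difference between the KO and the WT library was -1.28 in replicate 1, -0.55 in replicate 2 and -0.62 in replicate 3, and replicate 1 had the largest of the 3 differences in 157 of 180 genes. For the higher genes it was 0.80, 1.38 and 0.38. Replicate 2 had the largest difference in 93 of these 128 genes and replicate 3 the smallest in 91. Since these differences also chose the genes, they only describe the calls. The direction was the same in 3 of 3 pairs for 171 lower and 112 higher genes. All KO libraries lay on one side of all WT libraries for 136 lower genes and 38 higher genes, beside 3.81% and 2.35% of all tested genes (6.17% in either direction). When each D2 library was left out in turn, 62 lower and 27 higher genes were called in all 6 fits. Without both libraries of replicate 1, 113 genes were called lower and 132 higher, of which 67 and 79 were among those called with all libraries. Without both libraries of replicate 2, 229 genes were called in either direction, of which 181 were among those called with all libraries. In that fit far fewer genes were called higher than with all libraries, as given in the last section.

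**Figure D2:**
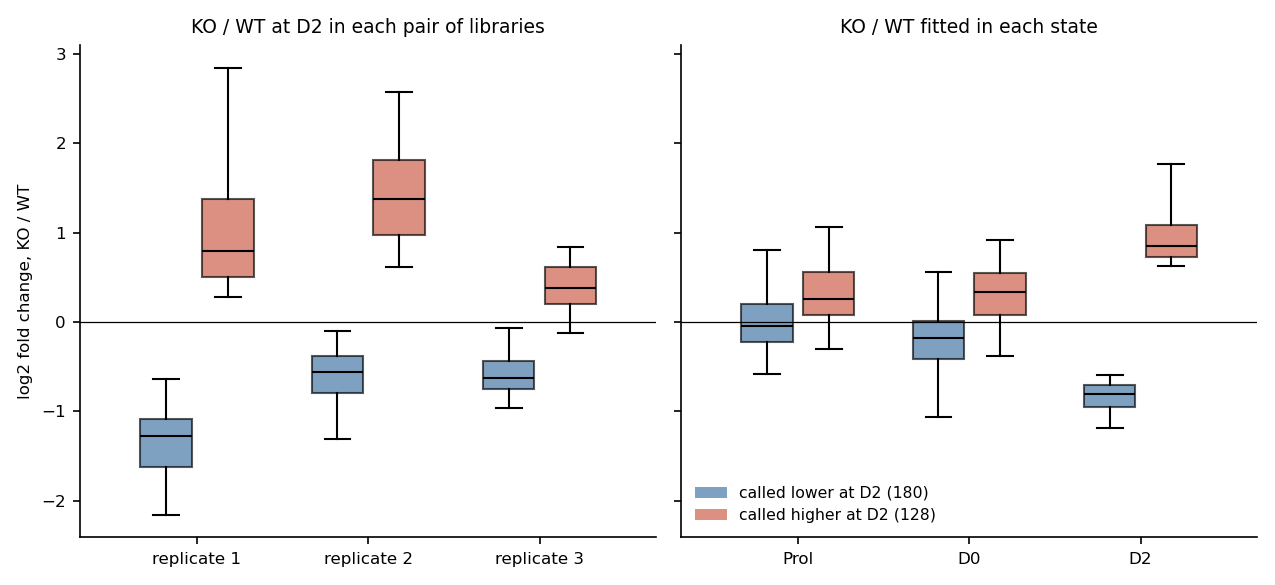
The left panel shows the log2 difference between the KO and WT library of each replicate number at D2 and the right panel the fitted log2 fold change (KO / WT) in Prol, D0 and D2, for the 180 genes called lower (blue) and the 128 called higher (red) at D2. Boxes span the quartiles with the median as a line, and whiskers run from the 5th to the 95th percentile. Replicate 1 has the lowest median of the lower genes (-1.28) and replicate 3 the smallest of the higher genes (0.38).

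The genes of the contractile apparatus were lower as a group. Of 62 tested members of the 3 contractile lists, 41 were called lower and 0 higher, and their median log2 fold change was -0.87, beside -0.01 for all genes. Without WT replicate 1, 26 were called lower, and without both libraries of replicate 1 it was 21, with a median of -0.57. The troponins, which couple calcium to contraction, were among them. *Tnnc1* (ENSMUSG00000091898, chromosome 14, 31208312 to 31211729), the slow and cardiac troponin C, was at 349, 342 and 211 CPM in WT and 108, 202 and 131 CPM in KO replicates 1 to 3. All 3 KO libraries were below all WT libraries, the nearest being WT replicate 3 and KO replicate 2. The change was -1.05 on the log2 scale (standard error 0.21, adjusted p = 0.109, limma). The slow troponin T gene *Tnnt1* went from 117, 93.6 and 78.2 CPM in WT to 41.6, 63.6 and 44.5 CPM in KO libraries, again without overlap (log2 fold change -0.96). In the list of thin filament genes, 16 of 20 were called lower (8 without WT replicate 1 and 9 without the pair of replicate 1), including 7 troponin genes (*Tnnc1*, *Tnnc2*, *Tnni1*, *Tnni2*, *Tnnt1*, *Tnnt2* and *Tnnt3*), the actins *Acta1* and *Actc1*, and *Tmod1*, which caps the pointed ends of thin filaments (log2 fold change -0.95).

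Among thick filament genes, 12 of 17 were called lower, and 7 without the pair of replicate 1. *Myl6b*, an essential myosin light chain, was at 42.1, 34.4 and 26.1 CPM in WT and 15.3, 23.5 and 18.9 CPM in KO libraries, and *Unc45b*, a chaperone for myosin folding, was at 51.4, 32.9 and 30.2 CPM and 21.4, 24.5 and 17.7 CPM. The groups did not overlap in either gene, and each had a log2 fold change of -0.81. *Myh1*, a fast myosin heavy chain, fell from 37.2 ± 6.19 CPM (SD, n = 3) to 21.2 ± 7.83 CPM. RSEM splits reads that fit several of the similar myosin heavy chain genes, which leaves single heavy chains uncertain. The embryonic heavy chain *Myh3* was not called (log2 fold change -0.91, adjusted p = 0.846, limma), although its 3 KO libraries, at 743, 690 and 639 CPM, were below the WT libraries at 2070, 1001 and 1049 CPM.

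Among genes of the Z-disc, the M-band and titin, 13 of 25 were called lower, and 5 without the pair of replicate 1. *Actn2* (ENSMUSG00000052374, chromosome 13, 12269426 to 12340760), the muscle α-actinin that crosslinks actin at the Z-disc, was at 29.4, 17.7 and 19.5 CPM in WT and 5.20, 8.44 and 11.3 CPM in KO libraries. *Ankrd2*, a stretch-responsive titin-binding protein, was at 15.8, 14.3 and 8.22 CPM and at 3.94, 5.09 and 5.20 CPM. Both genes had no overlap between the groups, and on the log2 scale *Actn2* changed by -1.42 (standard error 0.30) and *Ankrd2* by -1.37 (standard error 0.29), the largest changes in the list. *Cap2*, a cyclase-associated protein that acts on actin filaments, had a smaller difference, from 39.1 ± 15.3 to 22.2 ± 2.47 CPM.

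Muscle genes outside the sarcomere were also called lower. Of 22 genes of the triad and of calcium handling, 10 were called lower, of 11 genes of the neuromuscular junction 4, and of 22 genes of muscle energy metabolism 6, and 0 were called higher in any of these lists. Without WT replicate 1 the triad list had 3 calls and the neuromuscular junction list 0, and without the pair of replicate 1 they had 2 and 0. The energy list had 3 calls without KO replicate 1, without WT replicate 2 or without the pair of replicate 1, and 4 without KO replicate 2, and the neuromuscular junction list had 1 without KO replicate 1. *Cav3*, the muscle caveolin, was at 56.2, 34.6 and 26.4 CPM in WT and 16.5, 22.6 and 19 CPM in KO libraries. *Jph2*, which links the plasma membrane to the sarcoplasmic reticulum, was at 144, 66.9 and 66.6 CPM and at 53.9, 47.3 and 43.3 CPM. In both genes the WT library of replicate 1 was the highest of all, and the groups did not overlap.

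*Dok7*, an activator of the receptor kinase MuSK, was at 43.3, 21.2 and 20.8 CPM in WT and 18, 18.3 and 11.1 CPM in KO libraries (log2 fold change -0.79), and the acetylcholine receptor subunits *Chrng*, *Chrnd* and *Chrna1* were called lower with log2 fold changes of -0.76, -0.63 and -0.66. *Ckm* (ENSMUSG00000030399, chromosome 7, 19404776 to 19422841), the muscle creatine kinase, was at 14.7, 12.3 and 12.2 CPM in WT and 4.66, 8.45 and 5.54 CPM in KO libraries (log2 fold change -1.08, standard error 0.20, adjusted p = 0.0943, limma). *Prkag3*, the muscle-specific γ subunit of the AMP-activated kinase, was at 17.2, 24.3 and 19.7 CPM and at 7.28, 14.9 and 11.4 CPM. The KO libraries of *Ckm* and *Prkag3* were all below the WT libraries.

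Over these 6 muscle lists together, 61 of 117 tested members were called lower and 0 higher, and 109 had a negative log2 fold change. Their median was -0.71 with all libraries. It was -1.25 in the pair of replicate 1, -0.38 in that of replicate 2 and -0.63 in that of replicate 3. Without both libraries of replicate 1, 26 members were called lower and 0 higher, with a median of -0.46. In the 4 fits without 1 of the other libraries, 55 to 62 members were called, while 34 were called without WT replicate 1 and 47 without KO replicate 1. In the neuromuscular junction list, 7 members had an unadjusted p-value under 0.05 in limma with all libraries.

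**Figure D3:**
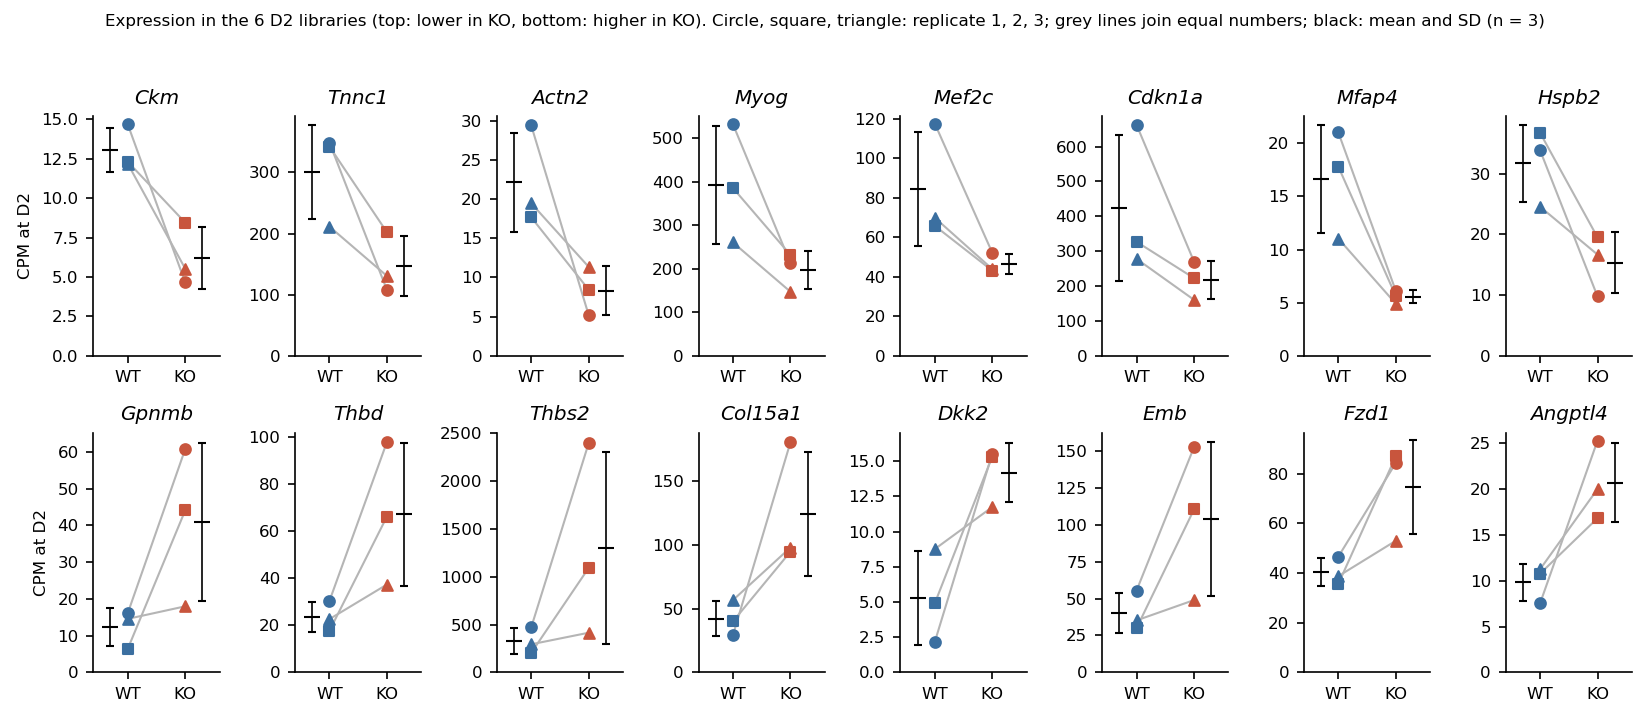
CPM of 16 genes in each of the 6 D2 libraries, with WT in blue and KO in red, grey lines between libraries of the same replicate number, and the mean with its SD (n = 3) in black. In the upper row the KO libraries lie below the WT libraries in each of the 8 genes. In the lower row the KO library is above the WT library in each pair. The difference there is smallest in replicate 3 for every gene but *Angptl4*.

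Of 21 tested myogenic transcription factors and cofactors, 4 were called lower, and 2 without the pair of replicate 1. *Mef2c* (ENSMUSG00000005583, chromosome 13, 83504034 to 83667080), a MADS-box factor of muscle genes, was at 117, 65.8 and 69.9 CPM in WT and 52.2, 43.1 and 43.9 CPM in KO libraries. *Myog* (ENSMUSG00000026459, chromosome 1, 134289989 to 134292548), which encodes myogenin, was at 532, 386 and 261 CPM in WT and 213, 232 and 148 CPM in KO libraries. Neither gene had an overlap between the groups. On the log2 scale *Mef2c* changed by -0.82 (standard error 0.15, adjusted p = 0.0968, limma) and *Myog* by -0.96 (standard error 0.31, adjusted p = 0.394, limma). *Myod1*, at 88.9 ± 10.4 and 57.2 ± 15.6 CPM (SD, n = 3), and *Tead4*, at 54.2 ± 20.3 and 29.8 ± 4.6 CPM, were the other called members. *Myf5*, which marks myoblasts before differentiation, was at 11.6, 19.8 and 21.4 CPM in WT and 15.5, 14.9 and 29.6 CPM in KO libraries and was not called (log2 fold change 0.15, adjusted p = 0.997, limma). The groups overlapped, and the direction of *Myf5* changed when libraries were left out. Of 23 inhibitors of myogenesis, only *Id1*, a dominant-negative partner of E proteins, was called, and it was lower in KO, at 53.7 ± 18.5 and 35.8 ± 11.7 CPM with overlapping libraries. It was not called without WT replicate 1 or without KO replicate 2.

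The fusion list was divided. *Mymk* and *Mymx*, which encode the muscle-specific fusion proteins myomaker and myomixer, and the cadherin gene *Cdh15* were called lower, and *Emb* was called higher, among 24 tested members. Without KO replicate 1, 1 was called lower, and without WT replicate 3 it was 5. *Mymk* was at 357, 172 and 148 CPM in WT and 126, 122 and 86.1 CPM in KO libraries, without overlap (log2 fold change -0.93, standard error 0.26). *Mymx* was at 37.5, 50.6 and 33.6 CPM and at 17.0, 39.1 and 18.7 CPM, and KO replicate 2 lay above 2 of the WT libraries. The median of the list was 0.12 and turned negative without KO replicate 1 (-0.03).

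No gene of the cell cycle and DNA replication list was called by limma among 36 tested, and 2 had an unadjusted p-value under 0.05, *Ube2c* at 40.6 ± 8.24 and 28.6 ± 4.58 CPM and *Ccne1* at 16.1 ± 2.38 and 12.9 ± 3.76 CPM (SD, n = 3). The median log2 fold change of this list was -0.21, beside -0.01 for all genes, and 33 members had a negative one. Without both libraries of replicate 2 that median was 0.04. The 3 pairs differed for this list, with a median log2 difference of 0.23 in replicate 1, -0.74 in replicate 2 and -0.13 in replicate 3. Without WT replicate 1, 9 of its members were called lower, without KO replicate 3 it was 4, and without both libraries of replicate 1 it was 7. Among RB, E2F and CDK inhibitor genes, 3 of 24 were called, all lower, and 1 without the pair of replicate 1. *Cdkn1a* (ENSMUSG00000023067, chromosome 17, 29090976 to 29100727), the CDK inhibitor p21 that is a known p53 target and is also induced in differentiating myoblasts, was at 662, 327 and 278 CPM in WT and 270, 223 and 161 CPM in KO libraries. All KO libraries were below all WT libraries, and its log2 fold change was -0.88 (standard error 0.26). *E2f2* was at 39.1, 27.4 and 26.2 CPM and at 13.9, 21 and 16.0 CPM, also without overlap (log2 fold change -0.85), while *E2f8* had a log2 fold change of -0.64. The retinoblastoma gene *Rb1* was not called (log2 fold change -0.47, adjusted p = 0.643, limma).

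Many of the lower genes with the smallest p-values lay outside the contractile lists. *Mfap4* (ENSMUSG00000042436, chromosome 11, 61485431 to 61488900), a microfibril-associated glycoprotein, was at 21, 17.8 and 11 CPM in WT and 6.13, 5.65 and 4.91 CPM in KO libraries. On the log2 scale it changed by -1.54 (standard error 0.22, adjusted p = 0.0486, limma), and it remained called in 6 of 6 fits without 1 library, between -1.78 and -1.37. It was near the detection limit in Prol, at 0.0698 CPM in WT and 0.0480 CPM in KO. *Afap1l1*, an actin filament-associated protein, was at 34.1, 24.1 and 24.4 CPM in WT and 11, 12.7 and 14.5 CPM in KO libraries (log2 fold change -1.09, adjusted p = 0.0546, limma). *Iqgap2*, a scaffold protein of the IQGAP family, was at 24.5, 10.5 and 13.0 CPM and at 4.59, 2.01 and 9.10 CPM. In each of the 3 genes the groups did not overlap, and for *Iqgap2* the WT library of replicate 2 and the KO library of replicate 3 were close.

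The small heat shock genes *Hspb2* and *Cryab*, which are expressed in muscle, were the only called members of 21 heat shock and muscle chaperone genes, and 1 was called lower without WT replicate 1. *Hspb2* was at 33.9, 36.8 and 24.6 CPM in WT and 9.80, 19.5 and 16.7 CPM in KO libraries (log2 fold change -1.06, adjusted p = 0.0943, limma). *Cryab* was at 227, 126 and 92.6 CPM and at 92.1, 86.0 and 65.1 CPM, where WT replicate 3 and KO replicate 1 nearly met. *Cbfa2t3*, a transcriptional corepressor, went from 12.6 ± 3.01 to 5.47 ± 1.2 CPM (SD, n = 3) and *Gja5*, a gap junction connexin, from 11.7 ± 2.93 to 4.77 ± 0.57 CPM. *Cbfa2t3* overlaps the annotated gene *Gm15899* on the same strand, so its reads could have been divided. *Fndc5*, the precursor of irisin, went from 23.1 ± 2.59 to 12.5 ± 1.25 CPM, *Tmem182*, a membrane protein of muscle, from 28.7 ± 10.3 to 14.1 ± 1.57 CPM, and *Acp6*, a mitochondrial acid phosphatase, from 49.7 ± 10.5 to 28.9 ± 3.89 CPM. In all 5 of these genes the KO libraries lay below the WT libraries.

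In the nuclear envelope list, 2 of 22 genes were called, and 0 without the pair of replicate 1 or without KO replicate 1. *Tmem38a*, a potassium channel of the sarcoplasmic reticulum and nuclear envelope, was at 71.6, 81.6 and 70.3 CPM in WT and 35.3, 62.1 and 51.9 CPM in KO libraries, without overlap (log2 fold change -0.62). *Syne2*, which encodes nesprin-2, was at 21.1, 6.79 and 11.4 CPM and at 60.7, 12.6 and 17.8 CPM, with overlapping groups (log2 fold change 1.00, adjusted p = 0.648, limma). The lamin gene *Lmna* was at 1068, 400 and 413 CPM in WT and 925, 404 and 445 CPM in KO libraries (log2 fold change -0.02, adjusted p = 0.999, limma). Its libraries of replicate 1 were the highest in both genotypes.

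Among the genes higher in KO, 107 of 128 belonged to none of the 25 lists. *Gpnmb* (ENSMUSG00000029816, chromosome 6, 49036546 to 49070929), a transmembrane glycoprotein, had the smallest p-value. It was at 16.1, 6.39 and 14.6 CPM in WT and 60.7, 44.1 and 18 CPM in KO libraries. All KO libraries were above all WT libraries, replicate 3 only slightly (log2 fold change 1.67, standard error 0.34, adjusted p = 0.109, limma). *Thbd* (ENSMUSG00000074743, chromosome 2, 148404466 to 148408188), the thrombin receptor thrombomodulin, was at 30.4, 17.7 and 22.7 CPM and at 98.0, 66.3 and 37.4 CPM, also without overlap (log2 fold change 1.44, standard error 0.30). *Emb*, the cell adhesion glycoprotein embigin, was at 55.4, 29.9 and 35.2 CPM in WT and 153, 110 and 49.0 CPM in KO libraries, where KO replicate 3 was below WT replicate 1 (log2 fold change 1.28, standard error 0.28).

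*Thbs2* (ENSMUSG00000023885, chromosome 17, 14665500 to 14694235), the matricellular protein thrombospondin-2, was at 471, 204 and 294 CPM in WT and 2394, 1091 and 414 CPM in KO libraries. KO replicates 1 and 2 were above all WT libraries and KO replicate 3 was below WT replicate 1 (log2 fold change 1.76, standard error 0.43). *Cped1* had the same pattern, at 26.2, 7.88 and 13.1 CPM and 74.6, 47.0 and 16.7 CPM. *Tnmd*, the tendon protein tenomodulin, was at 1.68, 2.34 and 2.88 CPM in WT and 18, 12.7 and 3.47 CPM in KO libraries. Its groups did not overlap, but the difference rested on KO replicates 1 and 2, since KO replicate 3 was close to WT.

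In other higher genes the groups were apart in all 3 replicates. *Rnase4*, a secreted ribonuclease, was at 37.3, 43.2 and 42.3 CPM in WT and 75.5, 138 and 53.5 CPM in KO libraries, and it overlaps the annotated gene *Ang* on the same strand, which could share its reads. *Arhgdib* was at 14.6, 10.9 and 10.8 CPM and at 25.2, 20.4 and 19 CPM. *Nrn1*, a membrane-anchored neurite growth factor, was at 45.7, 33.5 and 38.7 CPM and at 80.6, 60.8 and 47.0 CPM. No KO library of these genes was below a WT library, and their log2 fold changes were 1.00, 0.84 and 0.65. *Ces1a*, a carboxylesterase, at 5.25 ± 2.12 and 13.7 ± 3.65 CPM (SD, n = 3), and *Prkar1b*, a regulatory subunit of protein kinase A that overlaps *Gm15672* on the same strand, at 10.5 ± 3.96 and 17.3 ± 4.59 CPM, were also among the higher genes with the smallest p-values. The groups of *Prkar1b* overlapped, with KO replicate 3 at 13.8 CPM below WT replicate 1 at 15.1 CPM.

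Matrix genes were called in both directions. Of 33 collagens and fibrillar matrix genes, 4 were called higher (*Fmod*, *Mfap5*, *Col8a1* and *Lox*) and *Mfap4* lower, and the median was 0.30, the highest of the 25 lists. The same numbers were called without the pair of replicate 1, but without the pair of replicate 2 only 1 was called higher and 1 lower. Without WT replicate 1, 8 were called higher, and without KO replicate 1 it was 2. *Lox*, which crosslinks collagen, was at 2253, 548 and 707 CPM in WT and 3730, 1450 and 1011 CPM in KO libraries. The libraries of replicate 1 were the highest in each genotype, and the groups overlapped (log2 fold change 0.89, standard error 0.31). *Fmod*, a small proteoglycan that binds collagen, was at 49.1, 5.23 and 7.33 CPM and at 71.0, 25.3 and 18.8 CPM (log2 fold change 1.40). The KO library of *Fmod* was above the WT library in 3 of 3 pairs, although WT replicate 1 was above KO replicates 2 and 3.

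Of 22 basement membrane genes, 3 were called higher and 2 lower. Without the pair of replicate 1 this was 2 and 0, and without the pair of replicate 2 or without KO replicate 1 it was 1 and 0. *Col15a1* (ENSMUSG00000028339, chromosome 4, 47208161 to 47313167), a collagen of basement membrane zones, was at 29.3, 39.9 and 56.7 CPM in WT and 180, 94.6 and 97.8 CPM in KO libraries, without overlap (log2 fold change 1.56, standard error 0.35). It was also called higher before differentiation, at 8.0 ± 3.86 and 25.6 ± 8.66 CPM in Prol (SD, n = 3; log2 fold change 1.80). *Nid1*, the linker protein nidogen-1, was at 236, 72.8 and 107 CPM and at 716, 186 and 130 CPM, and *Fbln2*, the matrix glycoprotein fibulin-2, at 725, 128 and 194 CPM and at 1040, 423 and 316 CPM. Both had overlapping groups. *Col18a1* and *Npnt*, which encodes the integrin ligand nephronectin, were lower, with log2 fold changes of -0.65 and -0.70. Among matrix proteases, *Mmp9* was called lower and *Adamts2* higher, and without WT replicate 1 there were 5 higher and 0 lower. The difference of *Mmp9* lay mostly in replicate 1, with 47.0, 7.09 and 6.26 CPM in WT and 6.49, 3.00 and 4.68 CPM in KO libraries. Its log2 fold change was -1.52 with all libraries and -0.66 without WT replicate 1.

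Signalling genes were called in small numbers. The share called was 9.4% in the Wnt and Hedgehog list, 5.6% in the IGF axis and 3.2% in the TGF-β, BMP and activin list. It was 1.74% of all tested genes, so a list with 1 call is only described. In the Wnt and Hedgehog list, 3 of 32 were called, all higher, and 3 without the pair of replicate 1. *Fzd1*, a Wnt receptor, was at 46.6, 35.6 and 38.8 CPM in WT and 84.4, 87.0 and 53.0 CPM in KO libraries, and *Dkk2*, a secreted modulator of Wnt coreceptors, at 2.16, 4.90 and 8.76 CPM and at 15.5, 15.3 and 11.7 CPM. Neither overlapped, and on the log2 scale *Fzd1* changed by 0.86 (standard error 0.19) and *Dkk2* by 1.62 (standard error 0.36). *Sfrp2*, a secreted Wnt-binding protein, was at 173 ± 81.9 and 280 ± 86.5 CPM (SD, n = 3). *Igfbp6* was the only called gene of 18 in the IGF axis, at 92.5 ± 21.9 and 144 ± 40.1 CPM, and *Tgfbi* the only one of 31 in the TGF-β, BMP and activin list, at 119 ± 60.2 and 193 ± 87.0 CPM. Both were higher in KO with overlapping libraries. Without WT replicate 1, 4 genes of the IGF axis and 2 of the TGF-β list were called higher, and without WT replicate 2 it was 0 in both.

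Of 24 genes of lipid handling and adipogenesis, 5 were called higher and *Acp6* lower. *Angptl4*, an inhibitor of lipoprotein lipase, was at 7.51, 10.8 and 11.2 CPM in WT and 25.2, 16.8 and 20.0 CPM in KO libraries, without overlap (log2 fold change 1.06, standard error 0.33). *Pparg*, the adipogenic nuclear receptor, was at 5.07, 3.21 and 4.23 CPM and at 11.4, 6.78 and 5.09 CPM, with KO replicate 3 only just above WT replicate 1 (log2 fold change 0.82). *Lpl*, lipoprotein lipase, was at 35.8, 29.9 and 32.9 CPM and at 188, 116 and 27.4 CPM, so that KO replicate 3 was below every WT library. *Fabp4* and *Plin4* had log2 fold changes of 1.77 and 1.39. Without both libraries of replicate 1, 2 members of the list were called higher, and without both of replicate 2 it was 1. It was also 2 without WT replicate 2, KO replicate 1 or KO replicate 2, and 3 without WT replicate 1. The summed level of 3 listed adipocyte markers, of which *Fabp4* was 88.9%, was 1.55 to 9.63 CPM in WT and 9.31 to 16.7 CPM in KO libraries, and *Adipoq*, *Cfd* and *Lep* were not listed.

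In the chemokine and inflammation list, *Saa3* and *Ccl5* were called lower and *Cxcl12* higher, among 28, and without WT replicate 1 there were 6 higher and 0 lower. *Saa3*, an acute-phase protein, was at 52.3, 7.15 and 7.56 CPM in WT and 4.61, 6.26 and 3.89 CPM in KO libraries. WT replicate 1 alone was far from the rest, and the log2 fold change was -1.52 with all libraries and -0.50 without it. No gene was called by limma among 28 immediate early genes (0 with an unadjusted p-value under 0.05), 32 interferon and antigen presentation genes (2), 24 genes of the ATF4 response (1) and 20 cholesterol synthesis genes (2). In fits without 1 library, up to 2 immediate early genes and 0 genes of the other 3 lists were called. The medians of these lists lay between 0.04 and 0.14, and those of all but the cholesterol list turned negative when some libraries were left out. The members with the smallest p-values had log2 fold changes of 0.62 for *Dusp1* and -0.46 for *Spry4* among immediate early genes, -1.24 for *Psmb9* and 0.40 for *Ifit2* among interferon genes, -1.17 for *Fgf21* and 0.34 for *Ddit3* in the ATF4 response, and 0.39 for *Cyp51* and 0.28 for *Sc5d* in cholesterol synthesis.

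**Figure D4:**
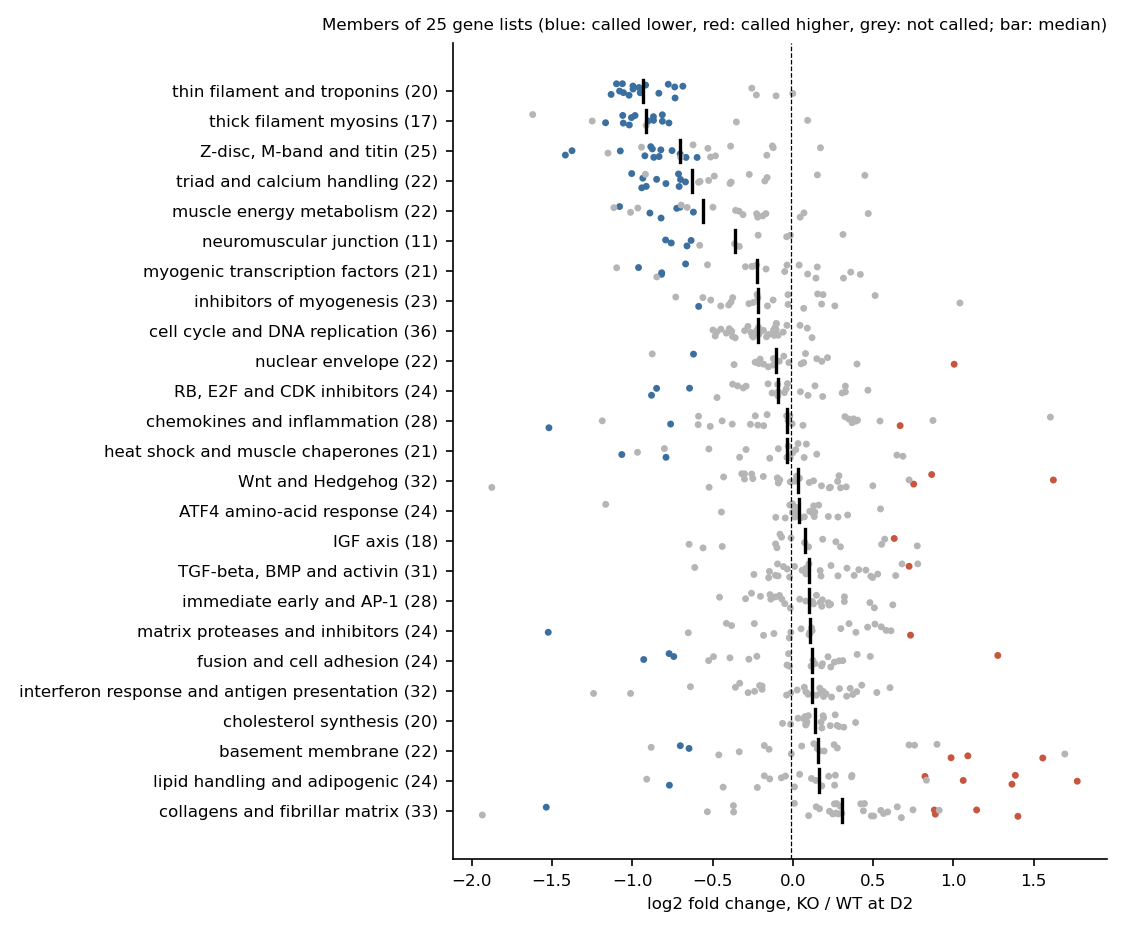
Each point is a tested member of 1 of 25 gene lists, with its log2 fold change (KO / WT at D2) on the horizontal axis, blue where called lower, red where called higher and grey where not called, and black bars mark the list medians beside the median of all genes (dashed line, -0.01). The thin filament list has the lowest median (-0.93) and the list of collagens and fibrillar matrix the highest (0.30), and the number of members tested is given in brackets.

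Markers of other cell types were compared beside the higher genes. The summed level of 8 listed fibroblast markers was 318, 293 and 274 CPM in WT and 471, 474 and 263 CPM in KO replicates 1 to 3, and 0 of them were called in limma, while 3 had an unadjusted p-value under 0.05 (*Lum* with a log2 fold change of 0.91, *Thy1* with -1.73 and *Pi16* with -1.05). *Pdgfra* made up 41.3% of this sum. KO replicates 1 and 2 were the highest in it, and KO replicate 3 was the lowest. Smooth muscle and pericyte markers summed to 1305 to 2326 CPM in WT and 981 to 1638 CPM in KO libraries, cartilage and bone markers to 67.5 to 188 and 85.8 to 204 CPM, Schwann cell and neuron markers to 12.7 to 18.2 and 6.38 to 20.5 CPM, endothelial markers to 1.38 to 2.39 and 1.88 to 2.74 CPM, and macrophage and leukocyte markers to 5.92 to 7.22 and 6.21 to 7.31 CPM. The defining markers *Tcf21*, *Myh11*, *Cdh5*, *Emcn*, *Ptprc*, *Adgre1* and *Sox10* were not listed. The part of other cell types in the results was not tested, and in bulk RNA fewer cells that differentiate and less RNA per cell cannot be told apart.

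The differences were compared with those before differentiation, in libraries of the same cell pools. The Prol and D0 libraries were in the same fit as D2 and shared its estimates of the spread and of the block, so they are not independent of the D2 p-values. The fit gives each group its own mean. Through the weights and the block, however, Prol and D0 values can also enter the D2 fold changes. Between KO and WT, 39 genes were called in Prol (0.221%; 0.17% lower and 0.0509% higher) and 69 at D0 (0.39%; 0.238% lower and 0.153% higher). Of the 128 genes higher at D2, 104 (81.2%) had a positive log2 fold change in Prol and 105 (82.0%) at D0, beside 50.6% and 53.5% of all genes, and 5 and 8 of them were also called higher there, while 2 were called lower at D0. Of the 180 lower genes, 99 (55.0%) had a negative log2 fold change in Prol and 130 (72.2%) at D0, beside 49.4% and 46.5% of all genes, and 0 were called lower in either state by limma, while 1 was called higher at D0. These 3, named after their values were seen, were *Rpl27*, a ribosomal protein gene (log2 fold change 0.92 at D0 and -0.72 at D2), *Gm42445* (-0.60 and 0.63) and *Gm26905* (-0.73 and 0.71). Genes called higher in all 3 states were *Col15a1*, *Thbs2*, *Trim25* and *Mmp23*, named after their values were seen. *Trim25*, a ubiquitin ligase, had log2 fold changes of 0.75 in Prol, 0.72 at D0 and 0.96 at D2, and *Mmp23*, a membrane-linked metalloproteinase, 0.68, 0.62 and 0.86.

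Whether KO acted differently at D2 than in Prol was tested as an interaction in the same fit. It was called for 108 genes (0.611%), 73 negative (0.413%) and 35 positive (0.198%), with an adjusted p-value under 0.05 in 0 and an unadjusted one in 421 genes (2.38%). Of the D2 calls, 46 of 180 lower and 16 of 128 higher genes had an unadjusted interaction p-value under 0.05. These genes were chosen by their change at D2, which is part of the difference. The counts among D2 calls therefore only describe them and cannot be set against the share of all genes. For *Iqgap2*, the log2 fold change was -0.10 in Prol and -1.79 at D2 (difference -1.69, standard error 0.44), with Prol levels of 8.75 CPM in WT and 8.38 CPM in KO. For *Dkk2* it was -0.30 and 1.62 (difference 1.92, standard error 0.59), and for *Emb* 0.09 and 1.28 (difference 1.18, standard error 0.39). Among the 41 contractile genes called at D2 it passed the unadjusted threshold in 9, and for *Actn2*, at 0.148 CPM in WT Prol, it was -1.66 with a standard error of 1.06.

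Promoters were searched for the letters of 3 motifs bound by muscle regulators, since the contractile genes moved together. CAGCTG, an E-box variant preferred by MyoD and myogenin, was searched as written, the MEF2 motif and the CArG box of serum response factor by their consensus, all on both strands and over 250 bases before to 50 after the RefSeq start. CAGCTG was in 15.9% of 14708 promoters of tested genes, in 34.1% of 170 promoters of lower genes and in 20.3% of 138 promoters of higher genes. Among lower genes it was in 53.4% of promoters of the 6 muscle lists and in 24.1% of the others. Muscle list members that were not called were not counted apart. Whether the share differs between called and other muscle genes was therefore not tested. The MEF2 motif was in 1.86%, 9.41% and 2.17% of promoters of tested, lower and higher genes, and the CArG box in 1.43%, 4.12% and 0%. Of all 32851 promoters in the table, 16.3%, 3.19% and 1.63% held CAGCTG, the MEF2 motif and the CArG box. The RefSeq table matched 11517 tested genes by symbol, and a match is a description of letters and not of binding. A gene can have several promoters, which can overlap, as for *Jph2*, so that the same motif is counted again.

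**Figure D5:**
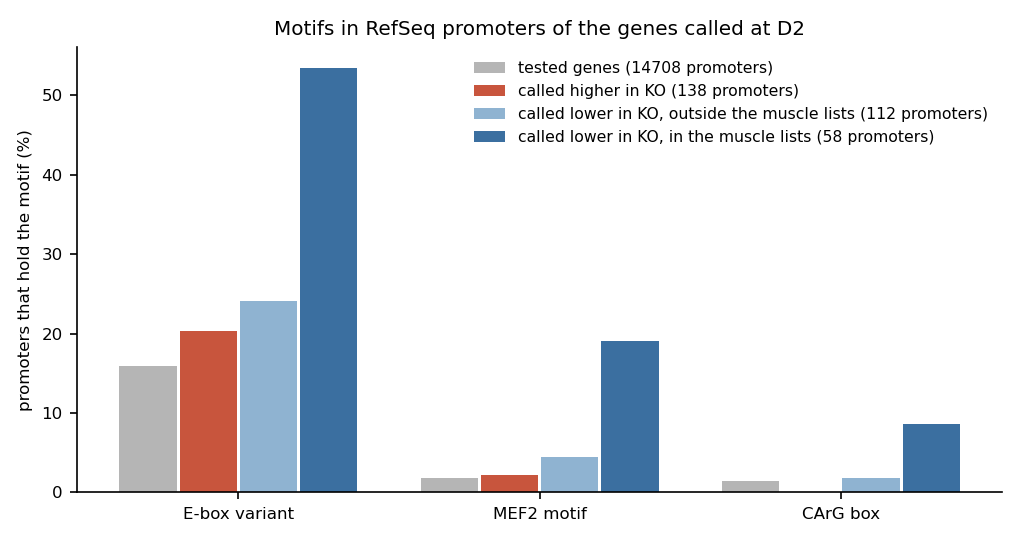
Bars give the percentage of RefSeq promoters (300 bases each) that hold the E-box variant, the MEF2 motif or the CArG box, for all tested genes (grey), genes called higher (red) and genes called lower outside (light blue) and inside (dark blue) the 6 muscle lists. The dark blue bars are the highest for each motif, at 53.4%, 19% and 8.62%.

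The 200 bases before the RefSeq start of 4 lower genes that hold CAGCTG and of *Thbs2*, a higher gene with a MEF2 motif, are shown 5′ to 3′ with the motif in capitals, to let the context be compared. They are from GRCm38.p6, at chr6:112459305-112459504 (plus strand, *Cav3*), chr2:163397994-163398193 (minus, *Jph2*), chr1:40805401-40805600 (plus, *Tmem182*), chr8:122699110-122699309 (minus, *Cbfa2t3*) and chr17:14694263-14694462 (minus, *Thbs2*).
Cav3: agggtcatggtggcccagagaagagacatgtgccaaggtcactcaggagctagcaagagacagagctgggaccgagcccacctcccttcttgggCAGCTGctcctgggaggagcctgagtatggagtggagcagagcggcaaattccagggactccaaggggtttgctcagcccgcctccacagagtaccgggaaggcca
Jph2: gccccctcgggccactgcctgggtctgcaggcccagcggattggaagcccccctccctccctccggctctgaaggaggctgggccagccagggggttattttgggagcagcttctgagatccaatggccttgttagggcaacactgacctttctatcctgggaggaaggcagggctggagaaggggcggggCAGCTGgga
Tmem182: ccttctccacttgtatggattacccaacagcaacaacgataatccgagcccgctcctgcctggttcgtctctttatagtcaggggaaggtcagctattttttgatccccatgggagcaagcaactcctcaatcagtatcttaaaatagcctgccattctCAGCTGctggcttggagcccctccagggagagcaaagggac
Cbfa2t3: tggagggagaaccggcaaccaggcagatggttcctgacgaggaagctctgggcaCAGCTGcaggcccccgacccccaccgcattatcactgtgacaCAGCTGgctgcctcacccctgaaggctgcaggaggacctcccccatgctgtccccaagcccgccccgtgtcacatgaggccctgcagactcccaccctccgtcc
Thbs2: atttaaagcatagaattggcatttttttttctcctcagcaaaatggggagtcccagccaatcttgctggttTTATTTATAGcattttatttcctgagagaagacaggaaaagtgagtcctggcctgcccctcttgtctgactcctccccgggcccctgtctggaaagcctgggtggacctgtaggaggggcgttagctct
*Cbfa2t3* holds the motif in 2 places and the other genes in 1. *Cav3*, *Jph2* and *Tmem182* had WT D2 levels of 39.1 ± 15.4, 92.5 ± 44.6 and 28.7 ± 10.3 CPM (SD, n = 3) and KO levels of 19.4 ± 3.05, 48.2 ± 5.35 and 14.1 ± 1.57 CPM, and none of them had overlapping groups.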

How the data were processed

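Single-end, stranded, poly(A)-selected RNA-seq of KO and WT myoblasts in 3 states gave 18 libraries, 3 in each of 6 groups. The authors trimmed reads with cutadapt, aligned them to the GRCm38 transcriptome with NextGenMap, estimated counts with RSEM, kept genes with more than 5 expected counts, and deposited values in CPM scaled by edgeR's TMM. From the deposited CPM, expected counts were recovered by inverting the scaling with the added count of 0.5. They are estimates and not whole reads, so a linear model was used. limma 3.58.1 in R 4.3.3 was fitted with voom weights and 6 group means to 17672 of 19153 listed genes, with replicate numbers as random blocks (correlation 0.448) and Benjamini-Hochberg adjustment over all genes. A block joins all libraries of a number over the 3 states, and not only the KO and WT library of a state. Deviations shared between states were not examined apart from this correlation. Taking equal numbers as pairs was set for this comparison. The study blocked on the sequencing lane, which the labels do not give, and the replicate number was used in its place. Libraries of the same number deviated together (correlations of 0.645, 0.367 and 0.276 at D2, and at least 0.163 elsewhere). At D2 this sets apart number 1 only, since WT 2 with KO 3 and WT 3 with KO 2 gave 0.381 and 0.322. In Prol and D0 all correlations between different numbers were below 0, which is no separate evidence for the pairing. Deviations were taken from the mean of each group of 3 and sum to 0. A positive correlation for equal numbers therefore pushes the others below 0. The study's methods name a threshold of 1.5 on the log2 scale, and here 1.5-fold was used with the other as an alternative. The genes named are *Tmpo* and its neighbours, 15 called genes in each direction by smallest p-value, up to 3 called members of each list (2 with the smallest p-values where none was called) and 4 myogenic factors; others are given as counts or examples. A gene that meets this rule is not reported here. Members and lists were chosen with earlier results of these data known. Positions are from GENCODE M21 and promoters from RefSeq (GRCm38.p6). Scripts were tested on simulated data. The simulation drew a separate block for each number within each state, so it does not check blocks that span the states.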

Additional observations from a re-analysis of the deposited data

Results flagged for a closer look

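For the named genes given here, the KO effect at D2 differed from that in Prol by more than 1.5-fold and at an unadjusted p-value under 0.05 in the interaction test of limma. None passed the adjustment over all genes (adjusted p = 1 for each). Since the genes were chosen by their change at D2, which is part of the difference, its sign is largely set by that choice and is only described. The difference of the log2 fold changes (D2 minus Prol) was negative for genes of muscle. It was -1.87 for *Myh1*, -1.48 for *Ckm*, -1.39 for *Myod1*, -1.01 for *Tnnc1*, -0.91 for *Prkag3*, -0.87 for *Cap2*, -0.85 for *Srl*, -0.76 for *Cryab*, -0.72 for *Myl6b* and -0.65 for *Mef2c*. Among other genes lower in KO at D2 it was -1.69 for *Iqgap2*, -1.58 for *Fndc5*, -0.94 for *Cdkn1a*, -0.74 for *E2f2* and -0.72 for *Acp6*. Among genes higher in KO at D2 it was 1.92 for *Dkk2*, 1.18 for *Emb*, 0.75 for *Nrn1* and 0.63 for *Fzd1*. In Prol, *Myh1* (0.0745 CPM in WT and 0.111 CPM in KO) and *Ckm* (0.0902 and 0.119 CPM) were near the level of 3 counts, 0.0803 to 0.119 CPM, and *Fndc5* was little above it (0.143 and 0.254 CPM), so that counting error in Prol enters their differences.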

How the results depend on the processing

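The number of D2 calls depended on the fit and the threshold. Without the replicate block, which uses the pairing, 172 genes were called in place of 308 (46 in place of 128 higher), and 33 in place of 108 for the difference between D2 and Prol (11 higher, 22 lower). Without voom weights it was 202 (98 lower), and without weights and block 82 (37 higher, 45 lower) and 41 (17 and 24). With log2(value + 1) the difference gave 174 (127 lower), and with a fixed block 53 were higher in it. With D2 libraries only, 193 were higher at D2. At an adjusted p under 0.05, 1 (0 higher, 1 lower) and 0 (0 and 0) were left, with log2 over 1.5, 17 (12 and 5) and 19 (5 and 14), and with no CPM minimum, 884 (400 and 484) and 398 (189 and 209). Leaving out 1 library gave 220 to 521 D2 calls (56 to 296 higher, 136 to 242 lower) and 88 to 209 for the difference (24 to 80 and 56 to 136), with 521 without WT replicate 1 and 471 without KO replicate 3. Without both libraries of number 1, 113 were lower. Without those of number 2, 48 were higher at D2 and 20 in the difference. Without those of number 3, 494 (230 higher) and 227 (76 higher, 151 lower) were called. Of all D2 calls 41.6% were higher, against 26.7% without the block, 51.5% without weights, 56.8% without WT replicate 1 and 23.0% without WT replicate 2. The 81 named genes include some that were not called, such as *Tmpo* and *Myf5*, and had no call to lose. Of the 81, 68 lost their call at an adjusted p under 0.05, 16 without the block, 19 without weights, 36 without both and 26 without the pair of number 1. *Myf5*, at 0.15, lay between -0.15 and 0.38 without 1 library (-0.08 without WT replicate 1, -0.15 without KO replicate 3) and at -0.0098 without both of number 3. Of 25 list medians 13, all at most 0.21 in size, changed sign under at least 1 alternative, and those of the 6 muscle lists and of the collagen list did not. Other scalings changed no call of a named gene. The causes were not tested.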
